A study of Mus musculus with 44 samples.

Results

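A set of 10 protein-coding genes that encode secreted signalling peptides or proteins of the vesicles that store them were followed: the neuropeptide precursors Npy, Sst, Penk, Pdyn, Crh, Vip, Cck and Tac1, the granin-like gene Vgf and the granin Scg2. They were found by symbol, through their Entrez identifiers, among the 27179 genes of the count tables, and all 10 were present and passed the filter on low counts in every comparison. The libraries are bulk RNA from dorsal hippocampus of mice 7 to 8 weeks old, 36 in all, 6 for each genotype and time, of which 3 were labelled male and 3 female. WT mice were compared with mice homozygous for Kdm5bΔARID, an allele that removes the ARID domain and truncates the JmjN domain of the H3K4 demethylase KDM5B. The 0 h mice were naive and came from the home cage. The other mice were taken 1 h or 3 h after contextual fear conditioning, in which 148 s of exploration was followed by 3 foot shocks of 0.7 mA, each lasting 2 s. No untrained group was taken at 1 h or 3 h, so learning, handling, the new chamber and time cannot be told apart. Both genotypes came from intercrosses of C57BL/6J × 129S2/Sv heterozygotes, so each mouse carries its own mixture of the 2 strains. The mutation is in every cell from conception, and a shorter KDM5B protein remains. In bulk tissue, fewer cells of a type and less RNA per cell cannot be told apart.

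Neuropeptides are cut from larger precursors inside dense core vesicles and released during sustained firing, after which they act on G protein-coupled receptors. Granins are acidic proteins that help form these vesicles and are themselves cut into active peptides. In the hippocampus, Sst, Npy, Vip and Cck mark classes of inhibitory interneuron, Pdyn is made by dentate granule cells, and transcription of several of these genes responds to cAMP, CREB and neuronal activity.

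The path from activity to these genes runs in part through the cAMP response element (CRE), so windows that hold a CRE or part of one are shown first. RefSeq promoter windows of build GRCm38.p6, from 250 bases before to 50 bases after each listed start, were found for 7 of the 10 genes; Penk, Crh and Vgf have no entry. On either strand, the palindromic CRE, TGACGTCA, was present in 1.79% of all 32851 windows and in those of Sst and Scg2. The variant TGCGTCA was present in 2.12% of windows, among them those of Cck and Tac1. The shorter core TGACG, which also lies inside the CRE and, on the other strand, inside the variant, was present in 20.8% of windows and in those of Sst, Vip, Cck, Tac1 and Scg2. The windows of Npy and Pdyn held none of these letters. The 120 bases just upstream of the start are printed 5′ to 3′ on the strand of the gene, with the letters of the CRE, the variant or, where neither lies in those bases, the core in capitals. Gene positions given further on are from RefSeq on the same build. The gene models of Sst and Vip also include starts further upstream than the one used here.
Sst, chr16:23890845-23890964, minus strand, CRE with its first base at -48: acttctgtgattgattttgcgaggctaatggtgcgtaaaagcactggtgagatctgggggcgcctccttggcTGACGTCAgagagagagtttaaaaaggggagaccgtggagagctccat
Scg2, chr1:79440027-79440146, minus strand, CRE with its first base at -68: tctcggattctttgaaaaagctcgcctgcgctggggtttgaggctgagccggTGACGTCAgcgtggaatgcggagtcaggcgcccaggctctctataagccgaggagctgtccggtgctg
Cck, chr9:121495695-121495814, minus strand, variant with its first base at -49: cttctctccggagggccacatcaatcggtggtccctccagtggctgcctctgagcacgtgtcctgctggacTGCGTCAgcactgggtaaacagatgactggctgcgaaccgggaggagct
Vip, chr10:5639098-5639217, plus strand, core with its first base at -79: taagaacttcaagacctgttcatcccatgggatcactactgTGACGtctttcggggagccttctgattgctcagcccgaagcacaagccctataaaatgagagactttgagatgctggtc
Tac1, chr6:7554941-7555060, plus strand, core on the other strand (CGTCA as read here) with its first base at -43: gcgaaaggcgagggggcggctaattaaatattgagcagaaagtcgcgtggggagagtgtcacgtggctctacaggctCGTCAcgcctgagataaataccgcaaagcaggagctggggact
These matches describe the letters of a window and do not show that a factor binds there.

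Library totals ran from 40274435 to 107000233 counts. The library labelled WT 1 h male 1 held transcripts of a female, and the library labelled mutant 3 h female 2 those of a male; both stayed under their labels, and values without them are given for fold changes of the 10 genes with an unadjusted p under 0.05 and for the calls of other genes over 36 libraries. Other values include them unless they are said to be left out. Whether these 2 libraries were exchanged with each other, which would make their genotype and time labels wrong too, was not tested. All 8 markers of hippocampal neurons had counts in every library. Kdm5b itself was at 86.4 ± 2.84 CPM (counts scaled to a common library size with TMM factors; mean ± SD, n = 6) in naive WT mice and 80.5 ± 3.89 CPM in naive mutants; reads of the intact and of the deleted transcript are counted together, so its total does not check the allele. The summed level of 8 choroid plexus markers ran from 46.2 to 8190.5 CPM among libraries, that of 8 thalamus markers from 52.3 to 176 CPM, and that of 8 oligodendrocyte markers from 4826 to 11449.9 CPM. The choroid plexus median was 2145 CPM in naive WT mice and 198 CPM in naive mutants. It was 1071 and 131 CPM in WT mice and mutants at 1 h, and 2266 and 1508 CPM at 3 h. The part of these differences between groups in the genotype values was not tested. Within groups, the correlations of the 10 genes with that sum ran from r = -0.47 for Scg2 to 0.11 for Pdyn.

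Per length of exon, the 10 genes spanned a range from Cck at 239 ± 24.3 to Crh at 1.22 ± 0.31 CPM per kilobase (mean ± SD, n = 36). Sst followed Cck at 192 ± 23.5, then Vgf at 86.8 ± 9.46 and Scg2 at 80.2 ± 7.19. Npy was at 56.4 ± 9.79 and Penk at 15.3 ± 3.81 CPM per kilobase. Vip, Pdyn and Tac1 were lower, at 4.08 ± 0.85, 2.63 ± 0.50 and 1.69 ± 0.37. The order of neighbours was the same in all 36 libraries for Sst over Vgf, Scg2 over Npy, Npy over Penk and Penk over Vip. It was less even for Vgf over Scg2 (29 of 36 libraries), Tac1 over Crh (31), Vip over Pdyn (32), Pdyn over Tac1 (33) and Cck over Sst (34).

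**Figure D1:**
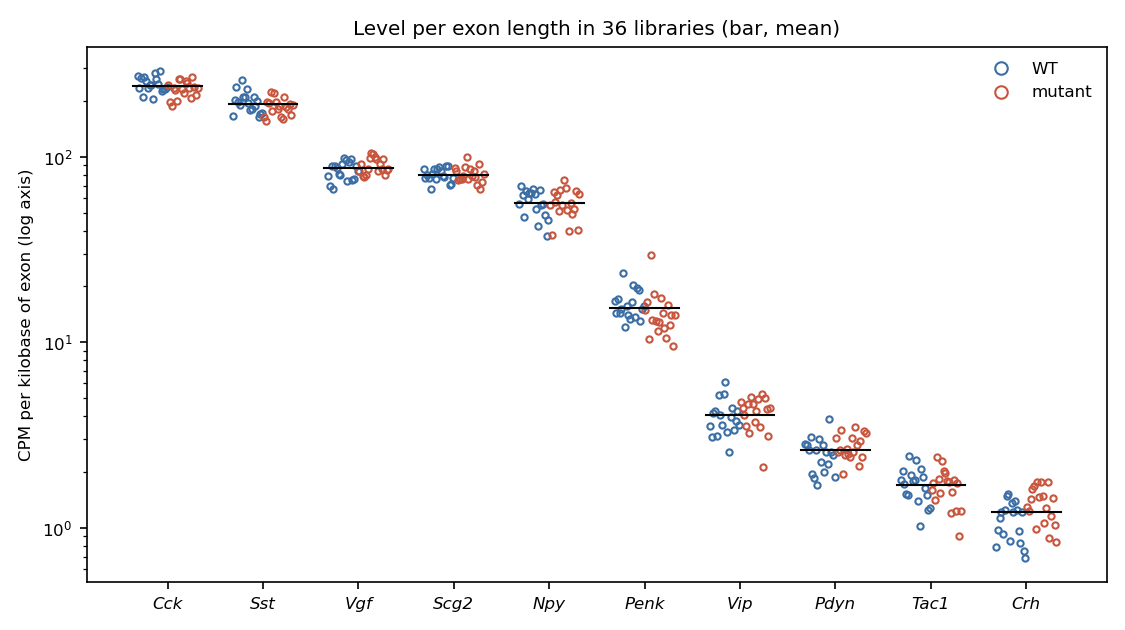
Level of each gene in CPM per kilobase of exon, on a log axis, in the 36 libraries (circles, coloured by genotype; bar, mean). The means fall from 239 for Cck to 1.22 for Crh, and the WT and mutant libraries of each gene overlap.

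The genes also differed in how far mice of 1 group spread. The median within-group coefficient of variation was 8.84% for Scg2, 9.34% for Vgf, 9.64% for Cck and 11.2% for Sst, beside a median of 10.8% over all genes tested. It was 17.4% for Npy, 17.9% for Vip, 18.8% for Penk, 19.1% for Pdyn and 20.4% for Tac1. Counting error alone would give 5.04% for Tac1 at its mean of 393 counts per library and 2.15% for Npy at 2167 counts. For Crh, with 110 counts per library, counting error would give 9.54%, beside the 18.9% observed.

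**Figure D2:**
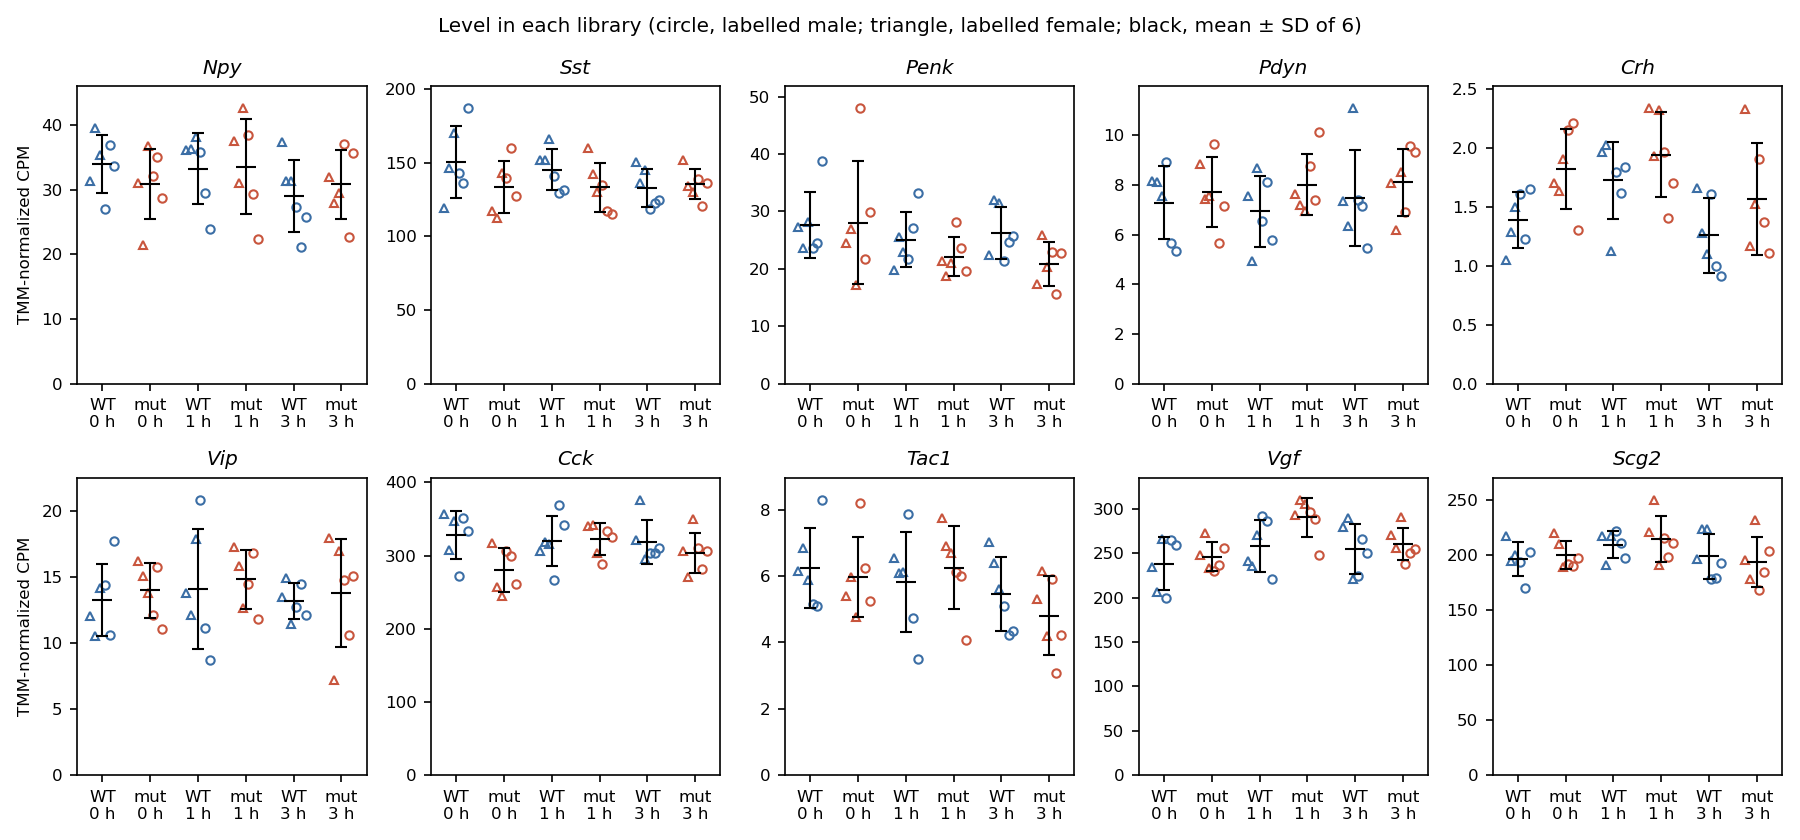
TMM-normalized CPM of each gene in every library, by genotype and time (circles, labelled male; triangles, labelled female; black, mean ± SD of 6). Ranges of the 6 groups overlap for every gene; the mutant libraries at 1 h are high for Vgf, where 5 of 6 lie above all naive mutants.

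Whether the mutation moved these genes was asked at each time with edgeR's quasi-likelihood test on 12 libraries, with labelled sex as a covariate and Benjamini-Hochberg adjustment over all genes tested. None of the 10 genes passed an adjusted p of 0.05 at 0 h, where 0% of 17336 genes did, at 1 h, where 0% of 17261 did, or at 3 h, where 0.0115% of 17394 did. At an unadjusted p under 0.05 there were 2 of 10 genes at 0 h (Crh and Cck) against 6.15% of all genes, 2 at 1 h (Sst and Vgf) against 8.61%, and 1 at 3 h (Penk) against 6.36%. DESeq2 with sex called none of the 10 at any of the 3 times, beside 0.071%, 0.436% and 0.222% of genes. The median log2 fold change of the 10 genes, mutant over WT, was 0.00 at 0 h, 0.05 at 1 h and 0.03 at 3 h, and that of all genes was 0.00 each time. Over all 36 libraries, with time and sex in the model, 0 of 10 genes passed beside 1.3% of 18186 genes, and only Crh had an unadjusted p under 0.05, beside 15.2% of genes; DESeq2 with sex also called none, beside 2.37% of genes, and had Crh and Cck under that unadjusted p, beside 13.1%.

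The response to training was tested within each genotype. In WT mice none of the 10 genes passed at 1 h against 0 h (0% of 17319 genes passed), at 3 h against 0 h (0% of 17438) or at 3 h against 1 h (0% of 17388). Their counts at an unadjusted p under 0.05 were 0, 1 (Npy) and 3 (Sst, Crh and Npy), where 5.36%, 8.23% and 7.41% of all genes had one. In mutants none passed at 1 h against 0 h, where 0.312% of 17282 genes did, at 3 h against 0 h (0% of 17285) or at 3 h against 1 h (0% of 17247). Their unadjusted counts were 2 (Vgf and Cck), 0 and 2 (Vgf and Tac1), where 11.1%, 8.57% and 8.04% of all genes had one. DESeq2 with sex called Vgf in mutants at 1 h against 0 h, where it called 1.61% of genes, and none of the 10 in the other 5 comparisons of time, where it called between 0.0222% and 0.552%.

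With both genotypes and all 36 libraries in 1 fit, no gene of the 10 passed at 1 h against 0 h, 3 h against 0 h or 3 h against 1 h, beside 1.28%, 2.6% and 0.28% of 18186 genes. Vgf and Scg2 at 1 h against 0 h, Tac1 at 3 h against 0 h, and Scg2 and Crh at 3 h against 1 h had an unadjusted p under 0.05, as did 12.7%, 16% and 10.7% of genes. Between labelled sexes none of the 10 passed, beside 0.0825% of genes, and only Scg2 had an unadjusted p under 0.05, beside 5.26%; DESeq2 with sex called none in these 4 comparisons, beside 1.78%, 3.49%, 0.841% and 0.0683% of genes. Whether the response itself differed between genotypes was tested as an interaction: none of the 10 genes passed for 1 h against 0 h or 3 h against 0 h, and 0% of 17907 and 0% of 17926 genes did. Only Cck at 1 h had an unadjusted p under 0.05 there, and 3.78% and 1.52% of all genes had one; DESeq2 with sex called none of the 10, beside 0.00866% and 0% of genes. Over all 16 comparisons, 21 of 160 tests on these genes (13.1%) and 8.47% of those on all genes had an unadjusted p under 0.05, from comparisons that share libraries.

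The 2 libraries of discordant sex enter 13 of these comparisons, and without them edgeR again called none of the 10 genes in any. Of all genes it then called 2.77% for genotype, 2.29% at 1 h against 0 h, 3.75% at 3 h against 0 h, 1.87% at 3 h against 1 h and 0.0875% for sex over both genotypes, and from 0% to 0.236% in the other 8 fits. Which genes had an unadjusted p under 0.05 changed. For genotype over both sexes and all times they were Crh, Cck, Vgf and Penk, 4 in place of 1, beside 17% of all genes, with log2 fold changes of 0.32, -0.10, 0.10 and -0.22. For genotype at 1 h they were Penk, Tac1 and Vgf beside 10.3%, and at 3 h Penk beside 8.06%. Mutants at 3 h against 0 h had Penk and Tac1, beside 11.2%, and so did the same contrast over both genotypes, beside 17.3%. For female over male labels they were Npy, Tac1 and Scg2, beside 8% of genes. Sst alone was left in WT mice at 3 h against 1 h (8.4% of genes), Vgf alone at 1 h against 0 h over both genotypes (14.6%) and Crh alone at 3 h against 1 h (13.2%), and no gene in the interactions. Tac1 and Vgf in mutants at 3 h against 1 h were as before (8.99%).

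**Figure D3:**
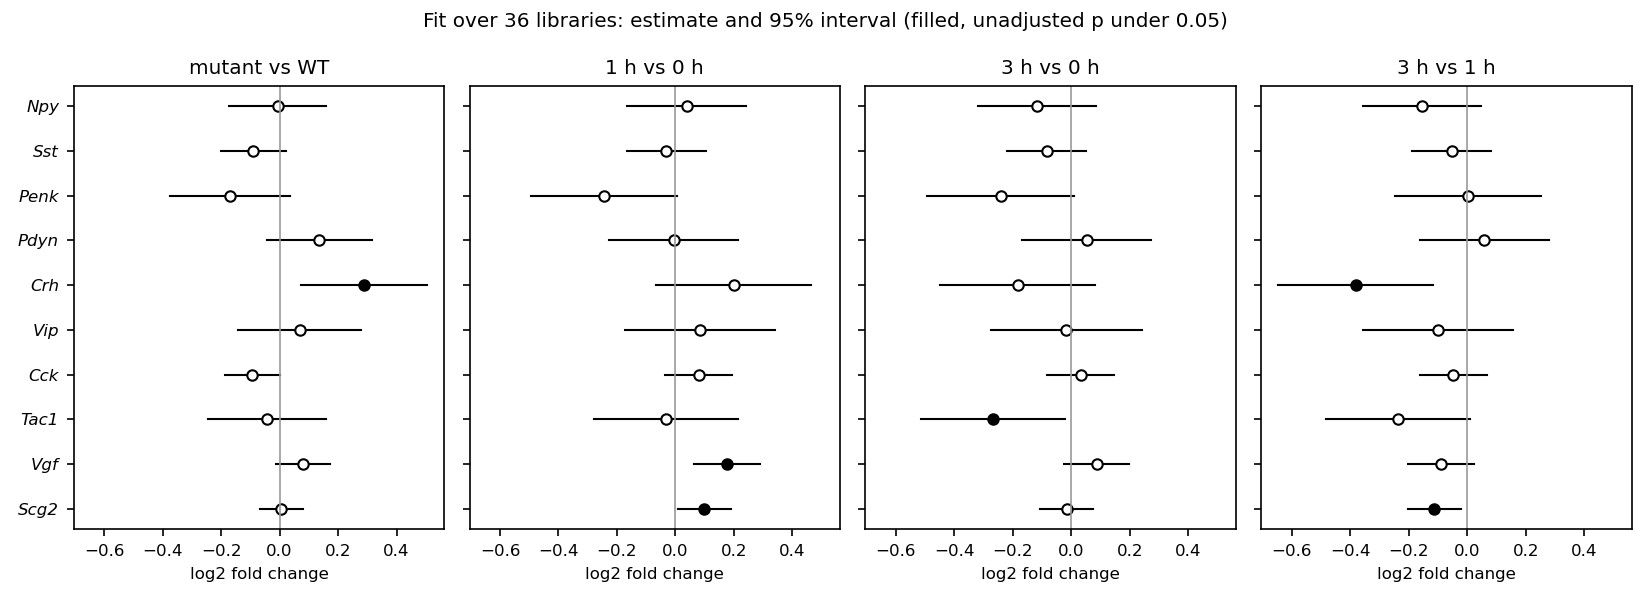
Log2 fold change of each gene with its 95% interval in the fit over all 36 libraries, for genotype and for 3 contrasts of time (filled circle, unadjusted p under 0.05). Crh has the highest estimate for genotype, 0.29, and Vgf the highest filled estimate at 1 h against 0 h, 0.18; none passed after adjustment.

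Vgf (Entrez 381677, chr5:137025301-137033351), a secreted granin-like protein induced by neurotrophins and activity, came closest to a call. In mutants it ran from 230.2 to 273 CPM (median 243) at 0 h, from 249 to 311 CPM (median 295) at 1 h and from 238 to 291 CPM (median 255) at 3 h. In WT mice it ran from 199 to 266 CPM (median 247) at 0 h, from 221 to 292 CPM (median 256) at 1 h and from 222 to 289 CPM (median 258) at 3 h. In mutants 1 h after training, 5 of 6 libraries lay above every naive mutant and all 6 above their mean, while the WT ranges overlapped broadly. The log2 fold change at 1 h against 0 h was 0.24 in mutants (SE 0.05, 95% interval 0.13 to 0.35, edgeR adjusted p = 0.079) and 0.11 in WT mice (SE 0.09, -0.09 to 0.30). The difference between those 2 responses was 0.13 (SE 0.11, -0.10 to 0.36, adjusted p near 1), so a larger response in mutants was not shown. From 1 h to 3 h the mutant value was -0.16 (SE 0.05, adjusted p = 0.43), or -0.14 without the library of discordant sex. Over both genotypes 9 of 12 libraries at 1 h lay above the 0 h mean, with 0.18 (SE 0.06, adjusted p = 0.11), or 0.16 (adjusted p = 0.15) without the 2 libraries of discordant sex. The mutant estimate crossed the threshold with DESeq2 (adjusted p = 0.0031 with sex, 0.0060 without) and in 2 of 12 edgeR fits that left out 1 library: 0.26 without mutant 0 h female replicate 2 (adjusted p = 0.048) and 0.27 without mutant 1 h male replicate 3 (adjusted p = 0.039). The mutant over WT value at 1 h was 0.17 (SE 0.08, adjusted p = 0.54), and 0.22 (adjusted p = 0.28) without the WT 1 h library of discordant sex.

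Scg2 (Entrez 20254, chr1:79434366-79440026), secretogranin II, the precursor of secretoneurin, carries the CRE shown above. It ran from 169 to 217 CPM (median 197) in naive WT mice, from 191 to 222 CPM (median 214) at 1 h and from 178 to 224 CPM (median 194) at 3 h. In mutants it ran from 188 to 220 CPM (median 194), 191 to 250.1 CPM (median 213) and 168 to 231 CPM (median 190). The medians of both genotypes were highest at 1 h, but all ranges overlapped. In the fit of 36 libraries it gave 0.10 for 1 h against 0 h on the log2 scale (SE 0.04, adjusted p = 0.34) and -0.11 at 3 h against 1 h (SE 0.04, adjusted p = 0.31), or 0.08 and -0.08 without the 2 libraries of discordant sex. The value for female over male labels was 0.11 (SE 0.04, adjusted p = 0.89), or 0.13 (adjusted p = 0.37) without the 2 libraries of discordant sex. Scg2 lies on the same chromosome as Kdm5b, 55.1 Mb away; its own genotype difference over 36 libraries was 0.01 on the log2 scale (SE 0.04, 95% interval -0.07 to 0.08), and 0.03 without the 2 discordant libraries.

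Sst (Entrez 20604, chr16:23889573-23891342) encodes somatostatin, an inhibitory peptide of interneurons that contact distal dendrites. In WT mice it ran from 119 to 187 CPM (median 145) at 0 h, from 129.5 to 166 CPM (median 146) at 1 h and from 118 to 150.4 CPM (median 130.2) at 3 h. In mutants it ran from 112 to 160.1 CPM (median 134), 115 to 159.7 CPM (median 132) and 120.3 to 151 CPM (median 135). The naive WT group was the widest, and no group stood apart from another. At 1 h the mutant over WT log2 fold change was -0.12 (SE 0.05, adjusted p = 0.53), and -0.11 (adjusted p = 0.56) without the library of discordant sex. WT mice at 3 h against 1 h gave -0.13 (SE 0.04, adjusted p = 0.45), or -0.11 (adjusted p = 0.43) without that library.

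Npy (Entrez 109648, chr6:49822710-49829507), the precursor of neuropeptide Y, which dampens excitatory transmission, had its lowest WT values at 3 h. WT mice ran from 26.9 to 39.6 CPM (median 34.5) at 0 h, from 23.9 to 38.1 CPM (median 35.9) at 1 h and from 21.2 to 37.4 CPM (median 29.3) at 3 h. Mutants ran from 21.5 to 36.7 CPM (median 31.6), 22.4 to 42.6 CPM (median 34.3) and 22.7 to 37.0 CPM (median 30.8). These ranges overlap throughout. In WT mice the log2 fold change was -0.24 at 3 h against 0 h (SE 0.10, adjusted p = 0.58) and -0.20 at 3 h against 1 h (SE 0.09, adjusted p = 0.67), the latter -0.13 without the library of discordant sex. Over 36 libraries the genotype difference was -0.01 (SE 0.08, 95% interval -0.17 to 0.16), and 0.02 without the 2 discordant libraries.

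Cck (Entrez 12424, chr9:121489824-121495694) encodes cholecystokinin, a peptide of one class of basket cell that pyramidal neurons also transcribe; the gene overlaps Gm38661 in the annotation. Naive mutants ran from 245 to 317 CPM (median 280.2) and naive WT mice from 272 to 357 CPM (median 341). Of the naive mutants, 3 lay below every naive WT mouse, and all 6 below the WT mean. That difference was -0.23 on the log2 scale (SE 0.08, adjusted p = 0.75). In the same 2 groups the thalamus sums ran from 70.0 to 153 CPM in mutants, with 3 of 6 at 132 CPM or more, and from 58.5 to 85.8 CPM in WT mice, and the striatum sums from 169.7 to 238 CPM and from 164 to 203 CPM; Gbx2 of the first list and Isl1 of the second had 0 counts in some libraries. The median log2 fold change was 0.23 over the 7 thalamus markers tested, 1 of them at an unadjusted p under 0.05, and 0.36 over the 10 striatum markers, 4 of them at such a p, beside 6.15% of all genes. Within groups Cck had r = -0.44 with the thalamus sum (rho -0.45, n = 36; -0.49 without 2 libraries) and -0.06 with the striatum sum; their part in this value was not tested. At 1 h the mutants ran from 288 to 342 CPM (median 329) and the WT mice from 267 to 369 CPM (median 317), and at 3 h from 271 to 349.5 CPM (median 306) and from 295 to 376.7 CPM (median 307). All 6 mutants at 1 h lay above the mean of naive mutants, with a log2 fold change of 0.20 (SE 0.07, adjusted p = 0.28). In WT mice the same contrast was -0.04 (SE 0.08), and the difference between the 2 responses was 0.24 (SE 0.11, 95% interval 0.01 to 0.47, unadjusted p = 0.039, adjusted p near 1), or 0.20 without the library of discordant sex.

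Vip (Entrez 22353, chr10:5639193-5647617) encodes vasoactive intestinal peptide, made by interneurons that inhibit other interneurons. It ran from 10.5 to 17.7 CPM (median 13.1) in naive WT mice and from 11.04 to 16.2 CPM (median 14.5) in naive mutants. Its highest value of all 36 libraries, 20.9 CPM, was in WT 1 h male 1 and its lowest, 7.23 CPM, in mutant 3 h female 2, which are the 2 libraries whose sex transcripts went against the label. The latter also had the highest marker sums of all 36 libraries for oligodendrocytes, at 11449.9 CPM (next 9516 CPM), and thalamus, at 176 CPM (next 153 CPM), and the lowest for hippocampal neurons, at 6501 CPM; their part in its Vip value was not tested. With both libraries, WT mice at 1 h averaged 14.1 ± 4.53 CPM (SD, n = 6) and mutants at 3 h 13.8 ± 4.09 CPM (n = 6). Without them these were 12.8 ± 3.45 and 15.1 ± 2.84 CPM (n = 5 each). The remaining trained groups were at 14.8 ± 2.22 CPM in mutants at 1 h and 13.2 ± 1.35 CPM in WT mice at 3 h. No comparison of Vip had an unadjusted p under 0.05; over 36 libraries the genotype difference was 0.07 on the log2 scale (SE 0.10, 95% interval -0.14 to 0.28). Without both libraries that value was 0.16 (SE 0.08, unadjusted p = 0.055, edgeR adjusted p = 0.31), without WT 1 h male 1 alone 0.12 and without mutant 3 h female 2 alone 0.11; leaving out WT 1 h male 3 gave 0.03, the lowest of the 36 such fits.

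Tac1 (Entrez 21333, chr6:7555061-7562978) encodes the precursor of substance P and neurokinin A. Of the letters searched, its window holds the variant at -199, outside the bases printed above, and the core at -43, inside them. Mutants at 3 h ran from 3.06 to 6.17 CPM (median 4.76) and mutants at 1 h from 4.06 to 7.75 CPM (median 6.41). All 6 mutants at 3 h were below the mean at 1 h, with overlap of the ranges and a log2 fold change of -0.37 (SE 0.16, adjusted p = 0.60), or -0.42 (adjusted p = 0.47) without the library of discordant sex. WT mice ran from 4.23 to 7.04 CPM (median 5.35) at 3 h and from 5.11 to 8.31 CPM (median 6.03) at 0 h. Over both genotypes the log2 fold change at 3 h against 0 h was -0.27 (SE 0.12, 95% interval -0.52 to -0.02, adjusted p = 0.26), with 9 of 12 libraries at 3 h below the 0 h mean; without the 2 discordant libraries it was -0.29 (adjusted p = 0.20).

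Crh (Entrez 12918, chr3:19693401-19695396), which encodes corticotropin-releasing hormone, a stress peptide made in the hippocampus by interneurons, was the least abundant of the 10 and overlaps Gm42189 in the annotation. Its counts ran from 50 to 202 per library. Naive WT mice ran from 1.04 to 1.65 CPM (median 1.39) and naive mutants from 1.30 to 2.21 CPM (median 1.80), and 4 of the 6 mutants lay above every WT mouse. That difference was 0.39 on the log2 scale (SE 0.17, adjusted p = 0.79). The summed 12 interneuron markers ran from 1373 to 1573 CPM and from 1500.4 to 1702 CPM in the same 2 groups, while within groups Crh and that sum had r = -0.30 (rho -0.25, n = 36); their part in this value was not tested. At 1 h the ranges were 1.12 to 2.02 CPM (median 1.81) in WT mice and 1.41 to 2.34 CPM (median 1.94) in mutants, and at 3 h 0.91 to 1.65 CPM (median 1.18) and 1.10 to 2.33 CPM (median 1.44). The mutant median was the higher one at each time. Over 36 libraries the genotype difference was 0.29 on the log2 scale (SE 0.11, 95% interval 0.07 to 0.51, adjusted p = 0.16), with 13 of 18 mutants above the WT mean; without the 2 libraries of discordant sex it was 0.32 (adjusted p = 0.099). At 3 h against 1 h, 10 of 12 libraries were below the 1 h mean, at -0.38 on the log2 scale (SE 0.13, adjusted p = 0.22; -0.33 without those 2 libraries). In WT mice alone the contrast was -0.46 (SE 0.20, adjusted p = 0.64; -0.43 without the discordant library), with all 6 libraries at 3 h below the 1 h mean.

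Penk (Entrez 18619, chr4:4133536-4138815), the precursor of the enkephalins, varied most among naive mutants, from 17.1 to 48.0 CPM (median 25.7). Naive WT mice ran from 23.5 to 38.7 CPM (median 25.9). Its 2 highest libraries of all 36 were mutant 0 h male 1, at 48.0 CPM, and WT 0 h male 3, at 38.7 CPM. The first of these also had the highest sum of the 10 striatum markers, at 238 CPM beside a median of 184 CPM over all libraries; Penk is abundant in striatal neurons, Isl1 of that list had 0 counts in some libraries, and the part of such cells in Penk was not tested. At 3 h, mutants ran from 15.6 to 25.9 CPM (median 21.5) and WT mice from 21.3 to 32.0 CPM (median 25.2). All 6 mutants lay below the WT mean and 3 below every WT mouse, at -0.33 on the log2 scale (SE 0.13, adjusted p = 0.77), or -0.39 (adjusted p = 0.53) without the library of discordant sex. The striatum sums ran from 164 to 218 CPM in WT mice and 178 to 198 CPM in mutants at that time. The WT range 1 h after training was 19.8 to 33.3 CPM and the mutant range 18.8 to 28.2 CPM.

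Pdyn (Entrez 18610, chr2:129686549-129699938), the precursor of the dynorphins, which mossy fibres of dentate granule cells release, ran from 4.94 to 11.1 CPM over all 36 libraries. Naive WT mice averaged 7.29 ± 1.47 CPM (SD, n = 6) and naive mutants 7.72 ± 1.40 CPM. With training 1 h earlier the WT mean was 6.94 ± 1.44 and the mutant mean 8.02 ± 1.22 CPM; after 3 h they were 7.47 ± 1.93 and 8.10 ± 1.33 CPM. The mutant mean was the higher one at each time, by less than 1 SD. The summed 8 dentate granule cell markers also had the higher median in mutants, with overlapping ranges. These medians were 961 beside 893 CPM at 0 h, 1005 beside 964 CPM at 1 h and 1124 beside 1009 CPM at 3 h. Within groups Pdyn had r = 0.61 with that sum, and the part of such cells in the Pdyn values was not tested. Over 36 libraries the genotype difference was 0.14 on the log2 scale (SE 0.09, 95% interval -0.04 to 0.32, unadjusted p = 0.14), or 0.15 without the 2 discordant libraries, and no comparison of Pdyn had an unadjusted p under 0.05.

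Genes that respond to firing gave a scale for the 1 h values. Of 10 immediate early genes, 9 rose with edgeR at 1 h against 0 h over all 36 libraries, where 1.28% of genes passed, namely Fos, Fosb, Junb, Egr1, Egr3, Npas4, Arc, Nr4a1 and Nr4a2; DESeq2 with sex called all 10, Egr2 among them, beside 1.78% of genes. Fosb rose by 1.37 (log2; SE 0.13, adjusted p = 9.4e-08), from 9.66 ± 2.05 to 24.9 ± 4.17 CPM (SD, n = 12 each), and Egr1 by 0.72 (SE 0.16, adjusted p = 0.013). The median over the list was 0.79, beside 0.06 over the 10 peptide and granin genes and -0.01 over all genes. Without the 2 libraries of discordant sex all 9 still passed, beside 2.29% of genes, the largest adjusted p being 0.014 (Npas4). Within mutants edgeR called 4 of the 10, Egr1, Egr3, Fosb and Nr4a2, at 1 h, beside 0.312% of all genes, and DESeq2 with sex called 8, beside 1.61%. Within WT mice edgeR called none, as of all genes, with all 10 at an unadjusted p under 0.05 beside 5.36% of genes. There DESeq2 with sex called 2, beside 0.0222% of genes: Fosb at 1.36 (SE 0.18, adjusted p = 2.6e-10) and Npas4 at 1.08 (SE 0.16, adjusted p = 5.0e-07). Calls of Arc (24 of 45 alternative fits), Nr4a1 (40), Fos (41) and Npas4 (44) did not hold in every fit, nor did that of Egr1 in mutants, which held in 18 of 20 (adjusted p = 0.062 without mutant 0 h male replicate 3 and 0.096 with all 36 libraries in 1 fit). At 3 h against 0 h, 2 of the 10 were called by both tools, beside 2.6% of all genes with edgeR and 3.49% with DESeq2: Egr3 at 0.35 (SE 0.07, adjusted p = 0.0040) and Fosb at 0.73 (SE 0.13, adjusted p = 0.0025) on the log2 scale, or 0.34 and 0.63 without the 2 discordant libraries. At 3 h against 1 h edgeR called 2, beside 0.28% of genes, Egr1 at -0.73 (SE 0.16, adjusted p = 0.026) and Fosb at -0.64 (SE 0.13, adjusted p = 0.022), or -0.93 and -0.77 without those libraries, and DESeq2 with sex called 8, beside 0.841%. The edgeR calls of Egr1 and Fosb there held in 31 and 43 of 45 alternative fits.

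**Figure D4:**
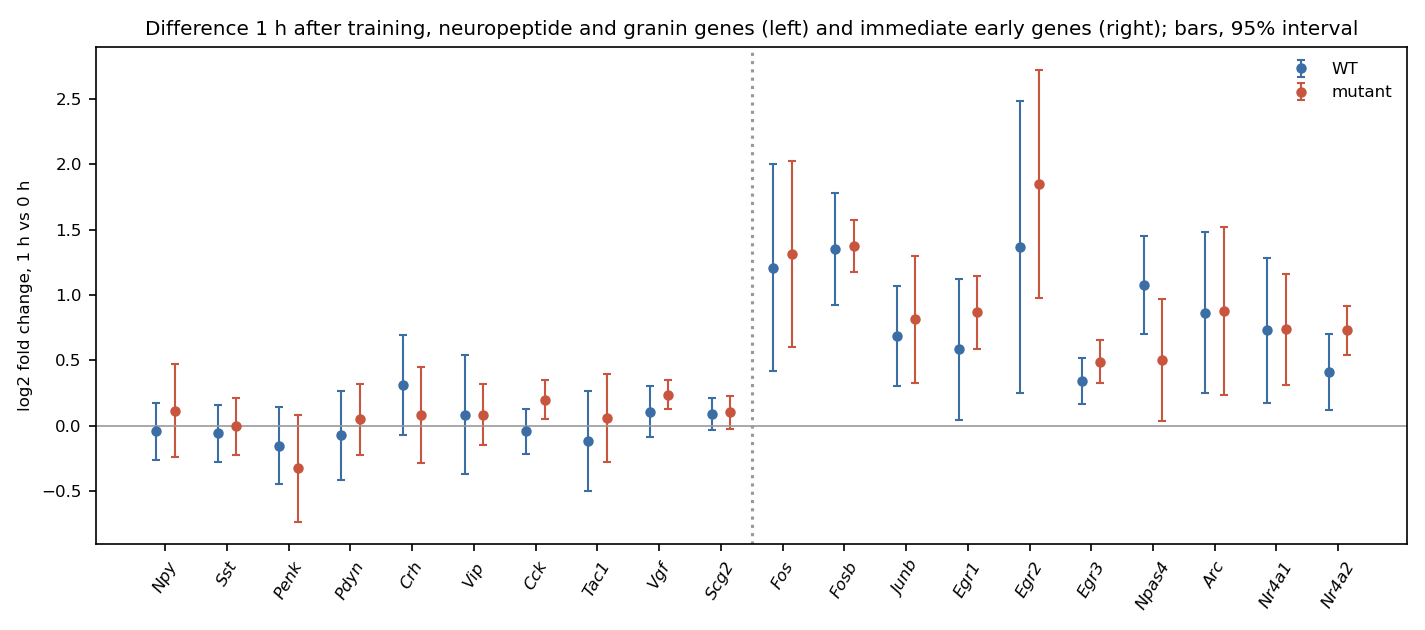
Log2 fold change 1 h after training against 0 h in WT (blue) and mutant (red) mice, with 95% intervals, for the 10 neuropeptide and granin genes (left of the dotted line) and 10 immediate early genes (right). Estimates of the left group run from -0.33 to 0.31, while the median of the right group is 0.80 in WT mice and 0.84 in mutants.

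Other genes of the same secretory route were counted by list in the 36-library fits. Of 13 other peptide precursors 12 were tested, and 1 rose at 3 h against 0 h, where 2.6% of all genes passed: Nmb, which encodes neuromedin B, by 0.30 (SE 0.08, edgeR adjusted p = 0.033), with all 12 libraries above the 0 h mean, a call that held in 31 of 45 alternative fits and at 0.32 (adjusted p = 0.021) without the 2 discordant libraries. Its level at 0 h was 3.00 ± 0.45 CPM and at 3 h 3.68 ± 0.51 CPM (SD, n = 12 each). None of the 12 passed for genotype with edgeR, and 5 had an unadjusted p under 0.05, beside 1.3% and 15.2% of all genes. The smallest was that of Pnoc, the nociceptin precursor, at 0.30 (SE 0.09, adjusted p = 0.083), which DESeq2 with sex called, beside 2.37% of genes. It also called Pomc for labelled sex, beside 0.0683%. Over all libraries Pomc had a median of 2.34 CPM and a highest value of 90.9 CPM, so its level rests on few libraries. At 3 h against 1 h the smallest was Pthlh at -0.32 (adjusted p = 0.41).

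None of the 5 other granins Chga, Chgb, Scg3, Scg5 and Pcsk1n passed in any comparison with edgeR or with DESeq2 with sex; the shares of all genes that edgeR called over 36 libraries were 1.3% for genotype and 1.28%, 2.6% and 0.28% for the contrasts of time. Over 36 libraries 1 of them had an unadjusted p under 0.05 for genotype, beside 15.2% of all genes, and 0 for the contrasts of time, beside 12.7% at 1 h against 0 h, 16% at 3 h against 0 h and 10.7% at 3 h against 1 h. Their smallest p for genotype was that of Scg5, at -0.11 (SE 0.04, adjusted p = 0.21). The smallest for the contrasts of time were those of Scg3 at 1 h against 0 h, 0.02, of Chgb at 3 h against 0 h, -0.08, and of Scg5 at 3 h against 1 h, -0.07. Of the 6 enzymes that trim, amidate or cyclise peptides, Cpd, which encodes carboxypeptidase D, fell at 3 h against 0 h, where 2.6% of all genes passed, by 0.14 (SE 0.04, adjusted p = 0.045; -0.14, adjusted p = 0.038, without the 2 discordant libraries), from 158 ± 10.3 to 144 ± 10.7 CPM, and was below the 0 h mean in 11 of 12 libraries; this call held in 24 of 45 alternative fits. The smallest p for genotype was that of Pam, the amidating enzyme, at -0.07 (SE 0.02, adjusted p = 0.076), and at 1 h against 0 h that of Qpct, which forms pyroglutamate, at -0.30 (SE 0.09, adjusted p = 0.072); DESeq2 with sex called both, beside 2.37% and 1.78% of genes, and Qpct also at 3 h against 0 h (3.49%) and in mutants at 1 h against 0 h (1.61%). None of the 7 genes of dense core vesicle release passed with edgeR, beside the same shares of all genes, while DESeq2 with sex called Syt4 for genotype at 3 h, beside 0.222% of genes. The smallest p for genotype was that of Syt4, at -0.12 (SE 0.04, adjusted p = 0.18), and at 1 h against 0 h that of Ica1, at -0.14 (SE 0.06, adjusted p = 0.27).

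Among 19 receptors and binding proteins of these peptides, all tested over 36 libraries, 1 differed with genotype, beside 1.3% of all genes; DESeq2 with sex called it and Crhr1, beside 2.37%. Oprk1, the kappa opioid receptor at which the peptides of Pdyn act, was higher in mutants by 0.80 (log2; SE 0.17, adjusted p = 0.011), at 1.78 ± 0.65 against 1.01 ± 0.51 CPM (SD, n = 18 each), and 16 of 18 mutants were above the WT mean. The call held in all 45 alternative fits and was 0.88 (adjusted p = 0.0014) without the 2 libraries of discordant sex. Marker sums of neighbouring regions also differed in range: those of the 8 thalamus markers had a median of 70.9 CPM (52.3 to 105 CPM) in WT mice and 86.4 CPM (58.1 to 176 CPM) in mutants, and those of the 10 striatum markers 181 CPM (159 to 218 CPM) and 185 CPM (167 to 238 CPM). The median log2 fold change of the single markers was 0.32 for thalamus, with 3 of 8 at an unadjusted p under 0.05, and 0.18 for striatum, with 4 of 10, beside 15.2% of all genes and a median of 0.00, and none of these markers passed with edgeR. Within groups Oprk1 had r = 0.33 with each sum (rho 0.31 for thalamus and 0.38 for striatum; 0.40 and 0.43 without 2 libraries); their part in the call was not tested. The choroid plexus sums had medians of 1691 CPM in WT mice and 198 CPM in mutants. Oprk1 had r = 0.10 with them within groups, and their part was not tested either. At 3 h against 0 h the log2 fold change of Oprk1 was -0.58 (SE 0.21, adjusted p = 0.13). At 1 h against 0 h the smallest p was that of Vipr1, a receptor for the peptide of Vip, at 0.19 (SE 0.05, adjusted p = 0.053), with all 12 libraries above the 0 h mean. DESeq2 with sex called Vipr1 there, beside 1.78% of genes, and Vipr1 and Oprk1 in mutants at 1 h against 0 h, beside 1.61%. At 3 h against 1 h it was that of Crhbp, which binds the peptide of Crh, at -0.20 (SE 0.09, adjusted p = 0.41).

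How the genes varied together was described over the 36 libraries as Pearson's r of log2 CPM (prior count 2) after subtracting the mean of each library's group. The points share a dissection and an RNA preparation for all genes of a library. Of 45 pairs among the 10 genes, 32 had r above 0. The highest were Npy with Tac1 (r = 0.61, Spearman's rho 0.49; 0.61 without the 2 libraries farthest from the median of Npy), Npy with Sst (r = 0.61, rho 0.65; 0.54 without 2) and Sst with Tac1 (r = 0.56, rho 0.59; 0.57 without 2). The library WT 0 h male 3 was the highest of all 36 for Sst, at 187 CPM, and for Tac1, at 8.31 CPM, and the lowest for the sum of dentate granule cell markers, at 706 CPM. Lowest was Pdyn with Vgf (r = -0.26, rho -0.22; -0.24 without 2).

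Against the summed markers of 13 cell types or regions, 6 of 130 pairs had an absolute r over 0.5. Cck went with the 8 CA1 markers (r = 0.63, rho 0.67; 0.68 without the 2 libraries farthest from the median of the marker sum), and their sum ran from 1094 to 1647 CPM. Pdyn went with the 8 dentate granule cell markers (r = 0.61, rho 0.56; 0.59 without 2), whose sum ran from 706 to 1301 CPM, and WT 3 h female 3 was highest for both. Vip went with the 8 neocortex markers (r = 0.60, rho 0.61; 0.59 without 2; sums from 446 to 611 CPM) and with the 8 subiculum markers (r = 0.54, rho 0.60; 0.51 without 2; sums from 193 to 275 CPM). Vgf went with the 12 interneuron markers (r = 0.57, rho 0.57; 0.53 without 2), whose sums ran from 1500.4 to 1702 CPM in naive mutants and from 1383 to 1527 CPM in mutants at 1 h, and from 1373 to 1573 CPM and 1376 to 1651 CPM in WT mice. Scg2 went against the 8 oligodendrocyte markers (r = -0.64, rho -0.58; -0.61 without 2). The part of tissue composition in the levels of these genes was not tested.

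**Figure D5:**
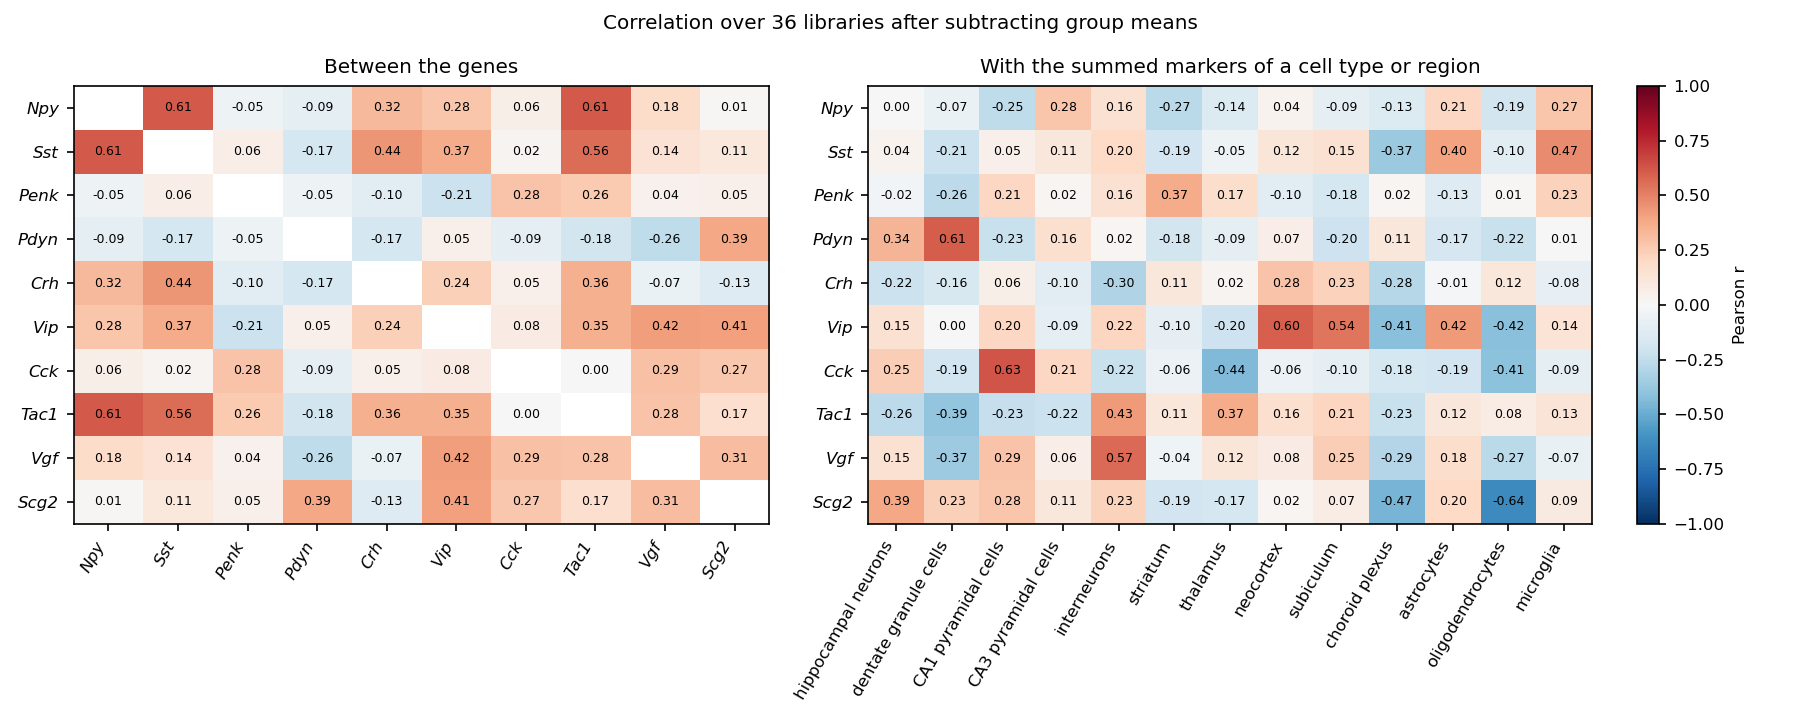
Pearson's r over 36 libraries, after subtracting group means, between the 10 genes (left) and between each gene and the summed CPM of 13 marker lists (right). Npy, Sst and Tac1 form the block of high values on the left (0.56 to 0.61); on the right Cck with CA1 (0.63) and Scg2 with oligodendrocyte markers (-0.64) are the extremes.

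By the same measure, the 3 genes most like each of the 10 were taken from all 18186 tested. For Npy they were A230051N06Rik, Cort, the cortistatin precursor, and Polr2k (r = 0.68 for each). For Sst they were Nupr1, Dnajc8 and Lypd6 (0.65 to 0.69), and for Tac1 Dnajc8, Polr2k and Ndn (0.70 to 0.79), so that Dnajc8 and Polr2k each recur. The closest to Vip were Adgra1, Chst8 and Ntn5 (0.79 to 0.81), and to Cck Nrgn, Rprml and Myl12b (0.72 to 0.76), Nrgn being the postsynaptic protein neurogranin. For Pdyn they were Shisa9, Slc44a5 and Scnn1a (0.71 to 0.75), for Penk Ube2r2, Btbd1 and Serpine2 (0.70 to 0.75), and for Crh B230217C12Rik, Zfyve28 and Chac1 (0.58 to 0.69). Vgf was closest to Cdh22, Dner and Tox2 (0.74 to 0.76) and Scg2 to Fbxl7, Nol4 and Cct5 (0.68 to 0.70).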

How the data were processed

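Poly(A) RNA was sequenced in paired-end reads, 1 library per mouse. The authors aligned reads to mm10 with STAR 2.7.8a and counted them per gene with featureCounts 2.0.1. The deposited values are raw counts, 1 table per library; annotation, strand setting and handling of multi-mapping reads are not given in the sources used here, so overlapping genes may share reads. Symbols came from RefSeq (25275 of 27179 genes; 1.284% of counts were on unnamed genes) and exon lengths from GENCODE vM21. Another 8 labelled samples are not analysed here.

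Genes were kept by filterByExpr (minimum count 10), libraries scaled by TMM, and each comparison fitted with edgeR 4.0.16 (R 4.3.3, limma 3.58.1) by robust quasi-likelihood F-test with labelled sex as covariate, on its own 12, 24 or 36 libraries; adjusted p under 0.05 was the threshold. The study used DESeq2, run here as an alternative (1.42.0). A level is CPM; intervals are 95%. Tables and figures used Python with NumPy, pandas, SciPy and Matplotlib. The members and the lists were chosen with earlier results of these data known. The genes named are the 10 members, list genes past the threshold or with the smallest p of their list in each 36-library contrast, and the 3 most like each member. Deviations of libraries of the same sex and number all had r over 0.1 only between mutants at 0 h and 1 h (r from 0.17 to 0.30, median 0.22). Their median r was 0.29 for genotype at 0 h, 0.20 for genotype at 1 h and 0.31 in WT mice at 3 h against 0 h. For libraries of other numbers it was -0.07, -0.08 and -0.10. Elsewhere the median for same numbers ran from -0.002 in WT mice at 3 h against 1 h to 0.18 for genotype at 3 h. None of the 90 library pairs within a group was identical.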

Additional observations from a re-analysis of the deposited data

Results flagged for a closer look

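Each of the 10 genes was looked at in each of the 6 groups, 60 in all, for an extreme library. A flag meant that its gap to its nearest neighbour, as a share of the range of the group, passed Dixon's 95% critical value. Chance would flag about 1 in 20 such groups of 6, and 4 of the 60 were flagged. Penk was at 38.7 CPM in WT 0 h male 3, where the next library of the group was at 28.1 CPM. Pdyn was at 11.1 CPM in WT 3 h female 3, where the next was at 7.39 CPM. Cck was at 376.7 CPM in WT 3 h female 2, where the next was at 321 CPM. Vgf was low, at 249 CPM, in mutant 1 h male 3, where the next was at 288 CPM, and this is 1 of the 2 libraries whose removal brought Vgf past the threshold. No response to training differed between genotypes for any of the 10 genes after adjustment.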

How the results depend on the processing

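The number of the 10 genes called was 0 in all 16 comparisons and stayed 0 under every alternative that was run, except in mutants at 1 h against 0 h. There it was 1 (Vgf) with DESeq2, with or without sex, and from 0 to 1 over fits that left out 1 library. The 21 fold changes with an unadjusted p under 0.05 kept their sign in all 622 alternative fits, among them RLE factors, no filter, 10 counts in every library, no sex covariate, sex read from transcripts, removal of the 2 discordant libraries and all 36 libraries in 1 fit. Of these fits 4, all of Vgf, passed. The 21 were picked by p in libraries that the fits mostly share, so a change of sign was unlikely beforehand and the kept sign is no separate support. With the replicate block, Vgf in mutants at 1 h was at 0.24 (adjusted p = 0.115) and no call changed among the 10 genes; same-numbered libraries had r from -0.34 to 0.48, over 0.1 in 32 of 54 pairs. The block and the fits without sex give no value for female against male. Of 20 called results of other list genes, 84 of 800 alternative fits fell short of the threshold and none changed sign. Arc passed in 24 of 45 fits, Cpd in 24, Nmb in 31, Egr1 at 3 h against 1 h in 31, Fosb there in 43 and Oprk1 in 45. Means without TMM factors moved by less than 1 SD in all 60 groups. Over all genes, calls in mutants at 1 h against 0 h were 54 with edgeR, 363 with DESeq2 and 37 with the replicate block. With the block over 36 libraries they were 245 for genotype, 298 at 1 h against 0 h, 619 at 3 h against 0 h and 63 at 3 h against 1 h. Calls for genotype at 1 h were 0 with edgeR, 98 with DESeq2, 5 with the block and 41 without the discordant libraries, and at 3 h 2, 50, 0 and 18. Over 36 libraries, edgeR, DESeq2 and edgeR without the discordant libraries called 237, 556 and 507 genes for genotype, 232, 417 and 419 at 1 h against 0 h, and 51, 197 and 341 at 3 h against 1 h; at 3 h against 0 h the latter 2 called 818 and 686, beside 2.6% of genes with edgeR. Leaving out 1 library gave 26 to 86 calls in mutants at 1 h and 11 to 189 at 3 h against 1 h over both genotypes. In the same 36-library fit it gave 169 to 368 for genotype, 124 to 352 at 1 h against 0 h and 271 to 724 at 3 h against 0 h. DESeq2 also called 5, 75 and 62 genes in the WT contrasts of time and 124 and 81 in the mutant contrasts with 3 h, where edgeR called none. Among the 10 genes Crh has the fewest counts, 50 to 202 per library. Why Vgf passes in some fits was not tested.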
